A study of Mus musculus with 4 samples.

Results

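The transcripts of 10 genes of the heterogeneous nuclear ribonucleoprotein (hnRNP) family were followed in single cells of the mouse brain at embryonic day 18. The genes are Hnrnpa1, Hnrnpa2b1, Hnrnpa3, Hnrnpk, Hnrnpc, Hnrnpd, Hnrnpdl, Hnrnph1, Hnrnpm and Hnrnpu. They were chosen by symbol, with all of their transcript isoforms, in cells with at least 1400 genes detected in the Illumina data. All 10 were found among the 16620 genes with a UMI in the Illumina or the Nanopore data, together with 69 of the 31986 isoforms listed in the Nanopore data. The 69 isoforms belong to 9 of the genes, and no isoform of Hnrnpu is among the Nanopore rows used here, for a reason that is not known.

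The cells came from the cortex, hippocampus and sub ventricular zone of a C57BL/6 mouse, without treatment, and were captured as 1 droplet emulsion of the 10x Genomics Chromium system (v2 chemistry). The emulsion was divided into aliquots of 190 and 951 cells. The cDNA of each aliquot was read on Illumina, which counts molecules per gene near the 3′ end, and on Nanopore, which reads the whole cDNA and assigns it to an annotated isoform. Each count is a UMI, a random tag that marks 1 captured molecule. The design therefore gives 4 libraries, and the aliquots are technical replicates of 1 cell suspension that carry no spread between animals. After the filter, 186 of 190 and 935 of 951 cells remained, with 1809081 and 8295650 Illumina UMIs and 993220 and 4889148 Nanopore UMIs. Of the cell barcode sequences of kept cells, 12 occurred in both aliquots. Whether these mark the same droplets was not tested, and such cells were kept.

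The hnRNPs coat nascent transcripts in the nucleus. They guide the choice of splice sites and of poly(A) sites, and several shuttle to the cytoplasm, where they act on the stability, transport and translation of mRNA. Their own transcripts are alternatively spliced, and some are controlled by cryptic or "poison" exons that send the mRNA to nonsense-mediated decay. Hnrnpa1, Hnrnpa2b1 and Hnrnpa3 encode the A/B proteins, with RNA recognition motifs and a glycine-rich tail. Hnrnpc encodes the C proteins, which bind uridine runs in nascent RNA. Hnrnpk binds cytidine-rich RNA through KH domains. Hnrnpd encodes AUF1, a regulator of mRNAs with AU-rich elements, and Hnrnpdl is its paralog. Hnrnph1 binds guanine runs, Hnrnpm binds GU-rich RNA, and Hnrnpu encodes a scaffold protein of the nuclear matrix.

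The isoforms of these genes differ in short coding segments, among other parts. These segments are shown here because results on isoforms are given for them. The sequences were taken from the Gencode vM21 transcripts on GRCm38 and read 5′ to 3′ on the strand of the gene. Capitals mark the segment that only one of a pair of isoforms carries, and lower case marks the coding bases next to it. All 69 isoforms were matched to this annotation by identifier without version, and 67 of them with the version. Many isoforms of a gene also differ in their annotated ends, so a share of an isoform is not the share of 1 segment alone.

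In Hnrnpk (minus strand, chr13:58391142-58403343), a cassette of 72 bases is the coding exon 7 of 16 at chr13:58396188-58396259, present in Hnrnpk-201 and absent from Hnrnpk-205:
Hnrnpk cassette exon: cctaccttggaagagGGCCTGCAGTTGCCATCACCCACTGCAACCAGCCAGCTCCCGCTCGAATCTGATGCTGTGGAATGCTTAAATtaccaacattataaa
The last exon of Hnrnpk begins at a choice of acceptor sites, 60 bases apart (chr13:58392417-58392476), so that the protein ends in one of 2 tails, each closed by the stop codon TAA. Capitals mark the last coding bases and the stop codon:
Hnrnpk-201 tail: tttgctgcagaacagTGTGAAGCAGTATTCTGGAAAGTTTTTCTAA
Hnrnpk-224 tail: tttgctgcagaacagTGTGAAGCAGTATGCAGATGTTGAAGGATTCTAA
The cassette and the tail give 4 kinds of coding transcript. Hnrnpk-201 has the cassette and the first tail, Hnrnpk-224 and Hnrnpk-232 have the cassette and the second tail, Hnrnpk-205 has no cassette and the first tail, and Hnrnpk-216 has no cassette and the second tail.

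In Hnrnpd (minus strand, chr5:99955935-99978938), 2 coding exons are each taken or skipped, which gives the 4 forms of AUF1. The early exon of 57 bases is exon 2 of 9 at chr5:99976534-99976590, and the late exon of 147 bases is exon 7 of 9 at chr5:99963731-99963877:
Hnrnpd early exon: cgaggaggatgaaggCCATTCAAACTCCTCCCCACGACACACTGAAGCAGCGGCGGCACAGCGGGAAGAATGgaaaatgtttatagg
Hnrnpd late exon: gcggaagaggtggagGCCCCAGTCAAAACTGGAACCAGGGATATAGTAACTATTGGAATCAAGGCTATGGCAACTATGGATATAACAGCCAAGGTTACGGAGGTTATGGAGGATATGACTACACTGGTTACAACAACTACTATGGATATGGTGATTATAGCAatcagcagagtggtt
Hnrnpd-211 has both exons, Hnrnpd-201 the early exon, Hnrnpd-203 the late exon, and Hnrnpd-202 neither.

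In the A/B genes, the B1 exon of Hnrnpa2b1 (minus strand, chr6:51467391-51467426, exon 2 of 12) adds 36 bases behind the start codon and makes hnRNP B1 from A2. The first exon of Hnrnpa3 (plus strand) is longer by 66 coding bases at chr2:75659324-75659389 in Hnrnpa3-204 than in Hnrnpa3-203, and the added stretch is 80.3% G and C:
Hnrnpa2b1 B1 exon: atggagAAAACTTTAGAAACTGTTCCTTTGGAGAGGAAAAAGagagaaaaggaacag
Hnrnpa3 first exon extension: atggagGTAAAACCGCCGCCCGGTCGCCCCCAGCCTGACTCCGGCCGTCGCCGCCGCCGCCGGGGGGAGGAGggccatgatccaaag

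In Hnrnpc (minus strand), an insert of 39 bases at chr14:52081789-52081827 makes the C2 from the C1 protein. In Hnrnph1 (plus strand), the penultimate exon of 50 bases at chr11:50385141-50385190 brings the stop codon into Hnrnph1-201. It has 1347 coding bases against 1416 in Hnrnph1-202, which skips this exon and reads on in the last one:
Hnrnpc C2 insert: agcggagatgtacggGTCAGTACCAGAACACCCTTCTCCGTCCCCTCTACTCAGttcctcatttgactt
Hnrnph1 penultimate exon: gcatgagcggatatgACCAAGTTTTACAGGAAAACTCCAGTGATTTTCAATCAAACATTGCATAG
The Hnrnpk cassette and the segments of Hnrnpd, Hnrnpa2b1, Hnrnpa3 and Hnrnpc keep the reading frame.

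Together the 10 genes took 0.492% and 0.455% of the Illumina UMIs in the 190 and 951 cell aliquots, and 0.480% and 0.440% of the Nanopore UMIs. Levels are counts of UMIs scaled to 1000000 UMIs of a library or class (CPM). They count molecules from the 3′ end and were not divided by transcript length. Hnrnpa1, Hnrnpa2b1 and Hnrnpk were the most abundant. Hnrnpa1 had 1104 and 1144 Illumina CPM in the 190 and 951 cell aliquots. Hnrnpa2b1 had 915.4 and 748 CPM. Hnrnpk had 839 and 717 CPM, so that its levels in the aliquots overlapped those of Hnrnpa2b1. Hnrnpd and Hnrnpm were lowest, at 192 and 164 and at 196 and 185 CPM, and their levels overlapped too.

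The first comparison was between the platforms, on counts summed per library. Nanopore gave a higher CPM than Illumina for Hnrnpa3, Hnrnpk and Hnrnpdl, and a lower one for Hnrnpm. For Hnrnpa3, the 190 and 951 cell aliquots had 348 and 335 CPM in Illumina and 562 and 493 in Nanopore. The platforms did not overlap. The log2 difference was 0.75 ± 0.09 (SE, 2 libraries per platform, adjusted p = 0.00149 by edgeR's quasi-likelihood test with Benjamini-Hochberg adjustment over all 10733 genes). Hnrnpk rose from 839 and 717 to 1030.0 and 890.1 CPM (log2 difference 0.43 ± 0.11, adjusted p = 0.0180). Hnrnpm fell from 196 and 185 to 86.6 and 79.6 CPM, by 1.07 ± 0.10 on the log2 scale (adjusted p = 0.000675). Hnrnpdl had a log2 difference of 0.27 ± 0.087 (adjusted p = 0.0437), which missed the threshold without any of the 4 libraries (0.0616 to 0.148).

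Hnrnpu had 245 and 206 Illumina CPM. Without a Nanopore row it entered the fit at 0, so its call is no measurement of its Nanopore level, and no fold is given. In all, 5 of 10 genes passed the test, 3 of them higher and 2 lower in Nanopore (Hnrnpm, and Hnrnpu through its missing rows), where 53.9% of all genes tested did, 18.5% as higher and 35.4% as lower. The share of hnRNP genes is thus near that of all genes. Any other gene without a Nanopore row also entered the fit at 0, so the values for all genes can include such calls. With the aliquot as a replicate block, 9 of 10 passed, all but Hnrnpa2b1, against 72.8% of all genes. The median log2 difference was -0.09 for the 10 genes and -0.16 for all genes. Of 22 other hnRNP and related RNA-binding genes, 4 were higher in Nanopore, with the largest rises for the poly(C)-binding genes Pcbp1 (log2 difference 0.65) and Pcbp4 (0.60). Another 6 were lower, most of all Raly (-2.96) and Syncrip (-2.25), both RNA-binding hnRNP relatives. A Nanopore UMI counts only once it has been assigned to 1 isoform, and the part of this step in the differences was not tested.

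**Figure D1:**
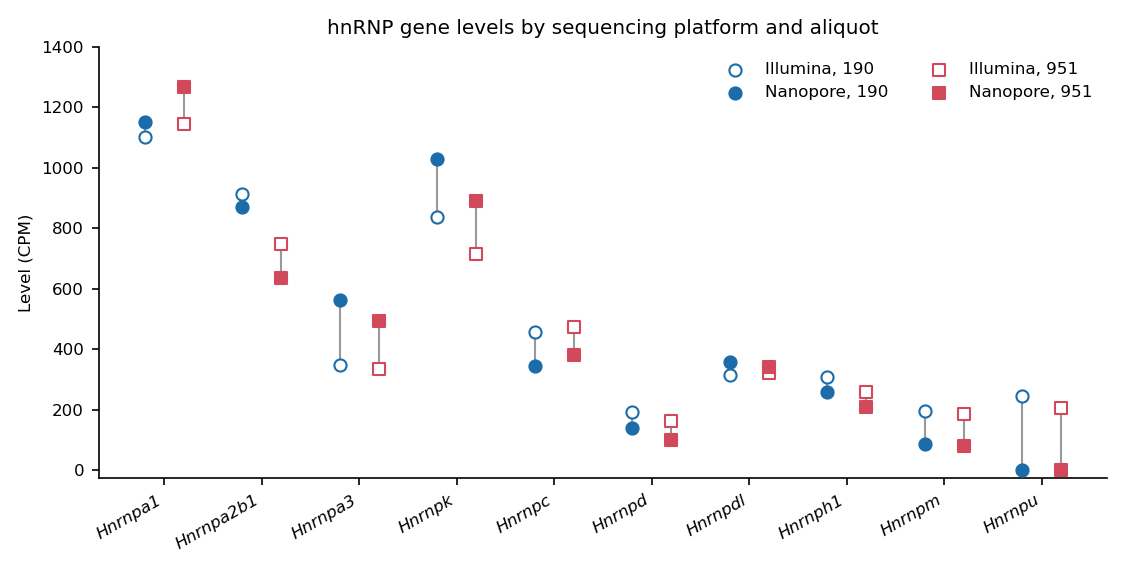
Level (y axis, CPM, linear) of the 10 hnRNP genes (x axis) on Illumina (open) and Nanopore (filled), with circles for the 190 cell and squares for the 951 cell aliquot. Grey lines join the platforms of 1 aliquot. Hnrnpa3 and Hnrnpk lie higher in Nanopore in both aliquots, Hnrnpm lies lower, and Hnrnpu, which has no Nanopore row, is drawn at 0.

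The isoform composition was uneven between the genes and close between the aliquots. Hnrnpm read almost wholly as 1 isoform, with 473 of 475 UMIs for Hnrnpm-201. Those 475 UMIs stand beside 1890 Illumina UMIs of the gene, and 3 of its 15 annotated transcripts have Nanopore rows. The shares thus cover only molecules that were assigned to an annotated isoform. In Hnrnpa1, Hnrnpa2b1 and Hnrnph1, 1 isoform held about the same large part, namely 79.7% of 7344 UMIs (Hnrnpa1-202), 81.9% of 3980 UMIs (Hnrnpa2b1-204) and 80.2% of 1276 UMIs (Hnrnph1-201). Hnrnpdl-202 held 71.8% of 2029 UMIs and Hnrnpa3-204 60.8% of 2968 UMIs. In Hnrnpk, Hnrnpc and Hnrnpd no isoform reached 50%. Their major isoforms held 38.6% of 5375 UMIs (Hnrnpk-201), 33.4% of 2216 UMIs (Hnrnpc-205) and 39.2% of 632 UMIs (Hnrnpd-211). Between the aliquots, the share of the major isoform was 40.8% and 38.1% for Hnrnpk-201, 31.2% and 33.8% for Hnrnpc-205, and 75.8% and 71.0% for Hnrnpdl-202, the gene with the widest gap (mean 73.4% ± 3.40, SD, n = 2 aliquots).

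The segments printed above were read from the isoform to which each molecule was assigned. Of the Hnrnpk UMIs, 79.4% carried the cassette exon (exact binomial 95% interval 78.3 to 80.5, which covers counting error only), and 50.7% carried the extension that gives the second tail. The extension was in 51.2% of 4256 UMIs with the cassette (49.6 to 52.7) and in 48.9% of 1101 UMIs without it (45.9 to 51.9). The aliquots went opposite ways, with 48.5% with and 54.3% without the cassette in the 190 cell and 51.8% and 47.6% in the 951 cell aliquot. In Hnrnpd, the late exon was present in 55.9% of the molecules with the early exon (51.1 to 60.5) and in 53.8% of those without it (46.3 to 61.1). Here the 190 cell aliquot gave 53.7% and 42.9%, and the 951 cell aliquot 56.4% and 56.9%. The intervals overlap in both genes, pooled and in each aliquot.

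Hnrnpc differed in this respect. The C2 insert was carried by 22.3% of 2214 UMIs, so that the C1 form was the more frequent. A further coding segment of 21 bases near the end of the transcript (chr14:52075416-52075436) was present in 49.4% of the molecules with the C2 insert (44.9 to 53.9) and in 73.3% of those without it (71.1 to 75.3). The 190 cell aliquot gave 45.8% and 73.3%, and the 951 cell aliquot 50.1% and 73.3%. Only combinations of segments that the annotation holds could be counted. Hnrnpc-207, with 518 UMIs, lacks an exon of the 5′ UTR and carries the segment of 21 bases without the C2 insert. The part of the annotation in the difference was not tested. The molecules of 1 gene share their libraries, and no test was run on these shares.

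In the A/B genes, the B1 exon of Hnrnpa2b1 was in 6.26% of the UMIs (6.76% and 6.12% in the 190 and 951 cell aliquots). A glycine-rich exon of 120 bases of Hnrnpa2b1 (chr6:51464428-51464547) was kept in 90.9%. The extended first exon of Hnrnpa3 was in 61.9% (63.0% and 61.6%). The intervals of the aliquots overlapped for each of these 3 segments.

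Transcripts that the annotation does not class as protein coding were rare in 7 genes, at no more than 1.86% of the UMIs of a gene (Hnrnpa2b1). They made up 22.0% of Hnrnpdl (20.2 to 23.8) and 12.4% of Hnrnph1 (10.6 to 14.3). In Hnrnpdl, most of them were Hnrnpdl-201, annotated as a target of nonsense-mediated decay, with 421 UMIs. It has an exon of 105 bases in the 3′ UTR that Hnrnpdl-202 skips (chr5:100035635-100035739), and 28.0% of the Hnrnpdl UMIs that read this region carried the exon. In Hnrnph1 the non-coding UMIs were spread over 10 isoforms.

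**Figure D2:**
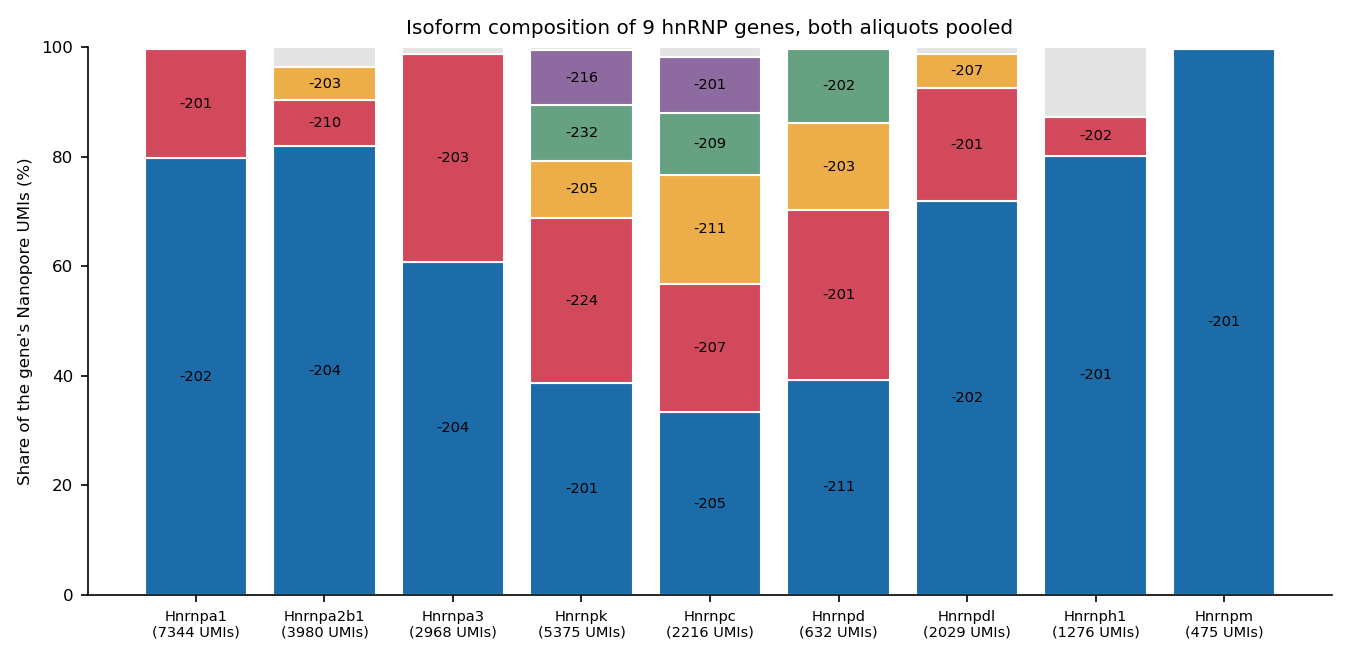
Share of each isoform (y axis, percent of the Nanopore UMIs of the gene, both aliquots pooled) in 9 hnRNP genes (x axis, with the number of UMIs). Coloured parts are isoforms of at least 5% of the gene or 10% in a class of cells, marked by the last part of their name, and light grey is the sum of all others. Among the UMIs assigned to an isoform, Hnrnpm shows 1 isoform, whereas Hnrnpk, Hnrnpc and Hnrnpd are split over 4 or 5.

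To compare cell types, the cells were clustered on the Illumina counts of genes other than hnRNP genes, and clusters were named by marker genes. The classes used here were radial glia-like (13 and 56 cells in the 190 and 951 cell aliquots), cycling radial glia-like (24 and 94), immature glutamatergic-like (37 and 195), mature glutamatergic-like (43 and 237), immature GABAergic-like (31 and 141) and mature GABAergic-like (17 and 128). A seventh cluster of 17 and 71 cells, led by microglial genes beside Eomes and Neurog2 of neuron-producing intermediate progenitors, stayed unnamed. In it, 8 of 9 intermediate progenitor markers were raised, and 3 of 88 cells held 10 or more UMIs of the microglial markers. When the hnRNP genes were kept in the clustering, a cluster of 84 cells was named intermediate progenitor-like. Of the mature glutamatergic-like cells, 143 form a cluster led by Ndrg1, Nefl and Itpr1 in which 3 of 10 markers were raised. The immature GABAergic-like cells were led by Ebf1, Isl1 and Zfhx3 and the mature ones by Sst, Maf and Nxph1, so they also differ as kinds of neuron. Pericyte markers summed to 148 CPM in the radial glia-like cells and to at most 4.56 in the other 6 classes of the fit, with none of the 4 at 0. The 5 oligodendrocyte precursor markers summed to 154 in the cycling and 48.3 in the other radial glia-like cells, and to at most 4.37 in the 4 neuronal classes. Their part in the results was not tested. Erythroid markers lay between 561 and 640 CPM in all 7 classes. The classes come from the same Illumina libraries as the gene levels, and p-values measure the spread between the 2 aliquots only. With 2 values per class, 2 classes can also lie apart by chance. The share of all genes or isoforms that do so was not counted for any comparison.

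The first comparison of classes set the cycling radial glia-like cells against the radial glia-like ones, called the other radial glia-like cells here. The cycling class also had raised intermediate progenitor markers, so the cell cycle and the kind of cell cannot be told apart. In the cycling cells, the 10 genes summed to 6585 and 5914 Illumina CPM in the 190 and 951 cell aliquots, against 4859 and 4427 in the other radial glia-like cells. The groups did not overlap, and cycling radial glia-like cells had the highest mean of all 7 classes. The lowest mean was that of the mature glutamatergic-like cells, at 4207 and 4026 CPM.

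Of the 10 genes, 3 were called higher in cycling than in other radial glia-like cells. Hnrnpa1 had 1352 and 1461 CPM in cycling cells and 1026 and 834 in radial glia-like cells, with a log2 difference of 0.68 ± 0.17 (adjusted p = 0.00466 by edgeR). Hnrnph1 had 412 and 313 against 272 and 193 (log2 difference 0.74 ± 0.21, adjusted p = 0.0122). Hnrnpd had 316 and 262 against 211 and 181 (log2 difference 0.64 ± 0.21, adjusted p = 0.0372). The classes did not overlap in these 3 genes. Of all 8590 genes tested, 6.64% were called higher and 12.1% in either direction. In all 10 genes both aliquots of the cycling cells lay above both of the other radial glia-like cells. The margin was smallest in Hnrnpk (853 against 849 CPM) and small in Hnrnpa2b1 (928 against 921 CPM). How many of all genes separate in this way was not counted. The fitted log2 differences of the 10 genes had a median of 0.50 against 0.06 for all genes. An unadjusted p under 0.05 was found for 8, and the share of all genes at that threshold was not counted.

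With the aliquot as a replicate block, all 10 genes were called higher, against 20.2% of all genes called in either direction. DESeq2 called 1 of them. In the Nanopore sums, edgeR called Hnrnpa1 (0.72, adjusted p = 0.00212) and Hnrnpdl (0.58, adjusted p = 0.0246). It did not call Hnrnph1 (0.58, adjusted p = 0.0663) or Hnrnpd (0.63, adjusted p = 0.115) there. The share of all genes called in these sums was not counted. Over all alternatives, Hnrnpd kept its call in 2 and lost it in 9. With each of the 4 sums left out in turn, Hnrnpa1 was called in 1 fit, Hnrnph1 in 2 and Hnrnpd in none (adjusted p from 0.0649 to 0.366). Without the cycling radial glia-like sum of the 190 cell aliquot, or without the radial glia-like sum of the 951 cell aliquot, none of the 10 was called, with log2 differences of 0.71 and 0.57 for Hnrnpa1. Of the 22 other genes, 3 were called higher, with the largest rises for Rbmx (1.05), an X-linked hnRNP relative, and Hnrnpab (1.02), an A/B-type RNA-binding protein, and none lower.

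When the mature glutamatergic-like cells were set against the radial glia-like ones, none of the 10 genes was called on the gene level by edgeR or by DESeq2, where 33.7% of all genes were called. Only Hnrnpm had an unadjusted p under 0.05. It had 129 and 151 CPM in the mature glutamatergic-like and 166 and 227 in the radial glia-like cells (log2 difference -0.45 ± 0.21, adjusted p = 0.0949), and the classes did not overlap. It was called without the radial glia-like sum of the 190 cell aliquot (adjusted p = 0.0353). With the aliquot block, 3 were called, against 44.2% of all genes. These were Hnrnpc (-0.31) and Hnrnpm (-0.48), lower in the neurons, and Hnrnph1 (0.35), higher. Of the 22 other genes, Rbmx (0.73) and Hnrnph3 (0.52) were called higher, and Hnrnpf (-1.17) and Hnrnpul1 (-0.72) lower. Hnrnph3 (0.0832 to 0.253) and Hnrnpul1 (0.0567 to 0.136) were lost without each of the 4 sums, and Hnrnpul1 came to 0.06 in the Nanopore sums.

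In the Nanopore sums, Hnrnpa3 differed between these classes where the Illumina counts gave no call. Illumina gave 323 and 298 CPM in mature glutamatergic-like and 372 and 383 in radial glia-like cells (log2 difference -0.22 ± 0.19, adjusted p = 0.414). Nanopore gave 427 and 390 against 800.5 and 705 (log2 difference -0.82 ± 0.17, adjusted p = 2.79e-05). The difference between the platforms itself was not tested. Hnrnpm was called lower in the Nanopore sums too (-1.26, adjusted p = 0.00054). Nanopore UMIs were found from those seen by Illumina, so the Nanopore sums are no independent measure of the same cells. The share of all genes called in the Nanopore sums was not counted.

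For the mature GABAergic-like cells set against the radial glia-like ones, Hnrnpd alone was called. It had 104 and 103 CPM in the mature GABAergic-like and 211 and 181 in the radial glia-like cells, and the classes did not overlap. The log2 difference was -0.95 ± 0.24 (adjusted p = 0.00226 by edgeR), and 16.5% of all genes were called lower and 31.2% in either direction. Without the mature GABAergic-like sum of the 951 cell aliquot it was -1.08 (adjusted p = 0.0855), and the count fell to 0. With the block, Hnrnph1 was called as well (0.52, adjusted p = 0.00698), against 38.5% of all genes. In the Nanopore sums Hnrnpd (-1.41) and Hnrnpa3 (-0.76) were called, and the share of all genes called there was not counted. Of the other genes, 3 were called higher, led by Hnrnph3 (1.00) and Rbmx (0.88), and 1 lower, Hnrnpf (-1.53).

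Between mature and immature neurons, few genes of any kind were called. In the glutamatergic-like cells this was 3.59% of all genes and none of the 10, with 1 of them (Hnrnpa1) at an unadjusted p under 0.05 and none by DESeq2. Hnrnpa1 had 877 and 947 CPM in the mature and 1252 and 1196 in the immature cells, which did not overlap (log2 difference -0.34 ± 0.17, adjusted p = 0.370). With the block it was called (adjusted p = 0.00589), where 11.1% of all genes were. In the GABAergic-like cells Hnrnpa1 was called lower in the mature cells, with 850 and 1050 against 1258 and 1558 CPM (log2 difference -0.66 ± 0.17, adjusted p = 0.0191 by edgeR). Here 1.39% of all genes were called lower and 2.57% in either direction.

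All 10 differences between mature and immature GABAergic-like cells were negative, although that of Hnrnpdl (-0.21) came to 0.12 without the immature GABAergic-like sum of the 951 cell aliquot. They had a median of -0.31 against -0.01 for all genes. An unadjusted p under 0.05 was found for 3, and the share of all genes at that threshold was not counted. The call for Hnrnpa1 was lost with DESeq2 (adjusted p = 0.0565), without the mature GABAergic-like sum of the 190 cell aliquot (-0.48, adjusted p = 0.382) and without the immature GABAergic-like sum of the 951 cell aliquot (-0.48, adjusted p = 0.425). None of the 22 other genes was called in either comparison. With the block, Hnrnpab was called in the glutamatergic-like (-0.37, adjusted p = 0.00541) and Hnrnpf in the GABAergic-like cells (-0.69, adjusted p = 0.00958, where 5.77% of all genes were called). With the block, the count over the 22 genes also went from 10 to 19 between the platforms, from 4 to 8 for the mature glutamatergic-like, from 4 to 6 for the mature GABAergic-like and from 3 to 9 for the cycling cells against radial glia-like ones. The difference between mature and immature cells was also compared between glutamatergic-like and GABAergic-like cells in 1 test. None of the 10 genes passed it, where 1.99% of all genes passed, and 1 (Hnrnpa2b1) had an unadjusted p under 0.05. The mature and immature GABAergic-like cells also differ as kinds of neuron, so maturation and kind cannot be told apart there.

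**Figure D3:**
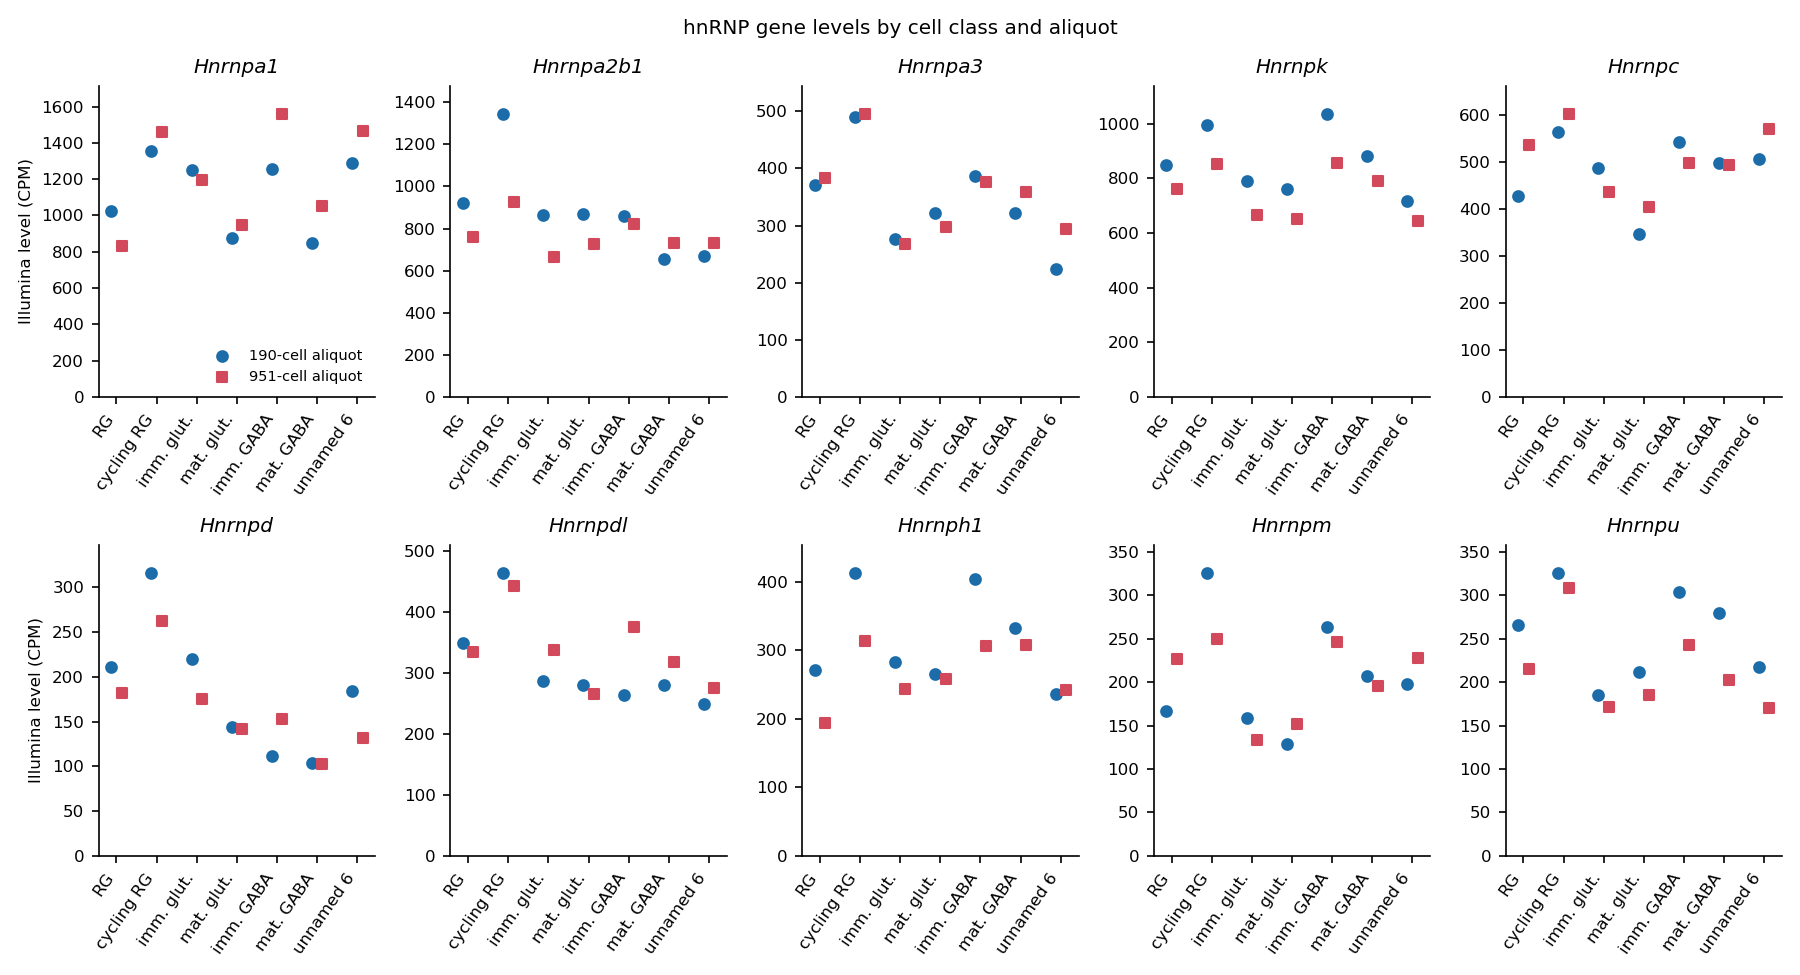
Illumina level of each of the 10 genes (y axis, CPM, linear from 0, with a scale of its own for each gene) in 7 classes of cells (x axis: RG, radial glia-like, with cycling RG, imm. and mat. for immature and mature, glut. for glutamatergic-like, GABA for GABAergic-like and unnamed 6 for the unnamed cluster). Circles are the 190 cell and squares the 951 cell aliquot. Both aliquots of cycling RG lie above both of RG in each of the 10 panels, by the least in that of Hnrnpk (853 against 849). How many of all genes do so was not counted.

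The isoforms of Hnrnpk in mature glutamatergic-like cells differed from those in radial glia-like cells, while the level of the gene gave no call. Hnrnpk had 761 and 651 Illumina CPM in mature glutamatergic-like and 849 and 762 in radial glia-like cells, so that the classes lay next to each other without overlap (log2 difference -0.12 ± 0.16, adjusted p = 0.636). The test of isoform usage took the Nanopore UMIs of each class and aliquot as 1 sum and asked for the change of each isoform relative to the others of the gene (diffSpliceDGE of edgeR, F test per gene, Benjamini-Hochberg adjusted over 654 genes). Hnrnpk passed with an adjusted p of 6.59e-07, and it passed in all 10 alternatives run for this comparison, at 0.00085 or less.

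Hnrnpk-224, with the cassette and the second tail, held 47.9% of 94 UMIs and 42.3% of 468 UMIs in the radial glia-like cells of the 190 and 951 cell aliquots. In the mature glutamatergic-like cells it held 20.7% of 266 UMIs and 22.1% of 1275 UMIs. The share was lower in the neurons in both aliquots, and the other classes lay between. Hnrnpk-224 held 36.4% and 39.6% in cycling radial glia-like, 34.9% and 30.4% in immature GABAergic-like, 23.4% and 26.8% in immature glutamatergic-like and 28.6% and 26.9% in mature GABAergic-like cells.

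Hnrnpk-205, without the cassette and with the first tail, went the other way. It held 1.06% and 5.13% in radial glia-like and 13.5% and 13.9% in mature glutamatergic-like cells. Relative to the other isoforms, Hnrnpk-205 was higher in the neurons by 1.12 on the log2 scale (adjusted p = 0.000279) and Hnrnpk-224 lower (-0.74, adjusted p = 0.000296), in a test per isoform in which 8.22% of all 1472 isoforms were called. Hnrnpk-232, with the same cassette and tail as Hnrnpk-224, came to -0.18 (adjusted p = 0.864) and was not called with the block either. Hnrnpk-224 and Hnrnpk-232 both have 1392 coding bases. They differ in their annotated ends and in their exon bases outside the coding part (2754 and 2704 transcript bases in all). The call on Hnrnpk-224 is thus not one on the cassette and tail alone. Hnrnpk-216 (0.58, adjusted p = 0.109) did not pass, and was called with the block (adjusted p = 0.0221), as was Hnrnpa3-203 (-0.37, adjusted p = 0.0240), where 10.5% of all isoforms were.

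On single molecules, both choices of Hnrnpk differed between these classes beyond counting error. The cassette exon was present in 89.2% (95% interval 81.1 to 94.7) and 89.3% (86.1 to 91.9) of the radial glia-like UMIs and in 73.9% (68.1 to 79.1) and 74.4% (72.0 to 76.8) of the mature glutamatergic-like ones. The extension with the second tail was present in 67.7% and 61.2% against 43.6% and 43.9%. For both segments the intervals of the classes did not overlap in either aliquot. Molecules with neither the cassette nor the extension were 1.08% and 5.15% of the UMIs in radial glia-like and 13.6% and 13.9% in mature glutamatergic-like cells. In mature GABAergic-like cells the cassette was present in 84.1% and 81.0% and the extension in 41.3% and 50.6%.

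**Figure D4:**
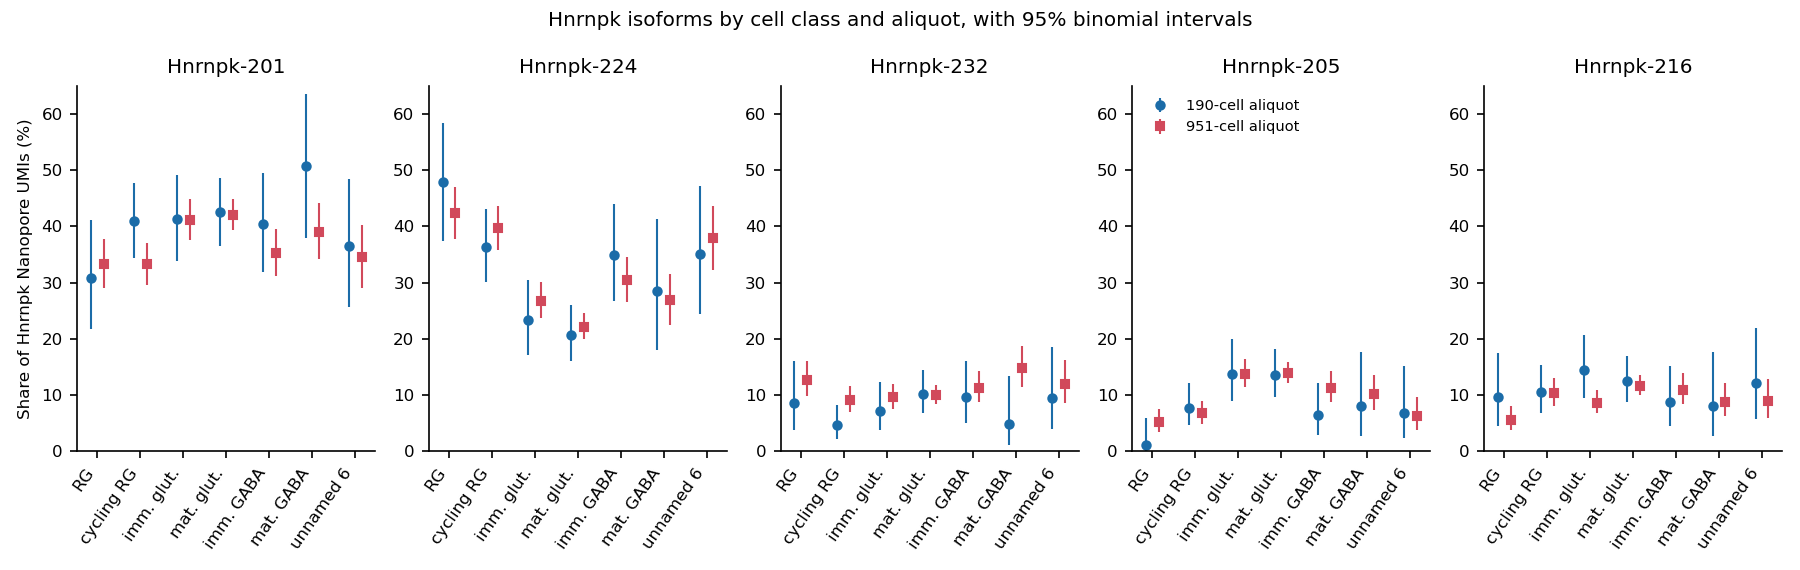
Share of each of 5 Hnrnpk isoforms (y axis, percent of the Hnrnpk Nanopore UMIs) in 7 classes of cells (x axis: RG, radial glia-like, with cycling RG, imm. and mat. for immature and mature, glut. for glutamatergic-like, GABA for GABAergic-like and unnamed 6 for the unnamed cluster). Circles are the 190 cell and squares the 951 cell aliquot, and bars are exact binomial 95% intervals. Hnrnpk-224 goes from 47.9% and 42.3% in RG to 20.7% and 22.1% in mature glutamatergic-like cells, and Hnrnpk-205 from 1.06% and 5.13% to 13.5% and 13.9%.

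In mature glutamatergic-like against radial glia-like cells, 4 of the 8 genes that kept 2 or more isoforms after the filter were called for isoform usage, where 16.2% of all genes were. Hnrnpm had 1 isoform past the filter. Beside Hnrnpk these were Hnrnpd (adjusted p = 0.0172), Hnrnpa3 (0.0197) and Hnrnph1 (0.0445). Without any 1 of the 4 sums, between 1 and 2 genes were called, and Hnrnpa3 and Hnrnph1 were lost each time. Hnrnpd was called without the radial glia-like sum of the 951 cell aliquot and lost without each of the other 3 (0.0521 to 0.127). With the block, Hnrnpa1 was called in addition (adjusted p = 0.0183), against 21.4% of all genes.

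In Hnrnpd, Hnrnpd-202 without either exon held 26.1% of 23 and 25.5% of 55 radial glia-like UMIs, and 3.33% of 30 and 7.58% of 132 mature glutamatergic-like UMIs. Hnrnpd-211 with both exons held 17.4% and 30.9% against 56.7% and 47.7%. The neurons and the radial glia did not overlap for either form, and how many of all isoforms separate in this way was not counted. Neither passed the test per isoform (adjusted p = 0.139 for Hnrnpd-202 and 0.265 for Hnrnpd-211), nor with the block (0.0716 and 0.129). The early exon was present in 27.3% and 56.4% of the UMIs of radial glia-like and in 93.3% and 78.8% of those of mature glutamatergic-like cells. The late exon was present in 65.2% and 49.1% against 60.0% and 61.4%, and the classes overlapped. These shares rest on few molecules, and the exact binomial 95% interval of the early exon in radial glia-like cells reached from 10.7 to 50.2% in the 190 cell aliquot.

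In Hnrnpa3, Hnrnpa3-203 with the short first exon held 46.2% and 49.0% in radial glia-like and 32.0% and 33.2% in mature glutamatergic-like cells. The extended first exon was present in 53.8% and 50.7% against 67.2% and 66.6%. The 2 isoforms also end at different positions in the annotation, with 5150 transcript bases in Hnrnpa3-203 and 1654 in Hnrnpa3-204. In Hnrnph1, Hnrnph1-202 without the penultimate exon held a larger share in radial glia-like than in mature glutamatergic-like cells, and the exon was present in 80.8% and 84.1% against 95.6% and 95.1%. The aliquots of a class differed by less than the classes did in both genes. Hnrnph1-202 did not pass the test per isoform (adjusted p = 0.108), nor with the block (0.0558).

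The C2 insert of Hnrnpc was present in 13.3% and 12.3% of the radial glia-like UMIs and in 19.4% and 22.6% of the mature glutamatergic-like ones (adjusted p = 0.181 for the usage of the gene). The B1 exon of Hnrnpa2b1 was present in 8.14% and 9.72% against 6.20% and 4.93% (adjusted p = 0.234). The classes did not overlap in these 2 segments either, but the tests for the genes did not pass. How many segments of all genes separate in this way was not counted.

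**Figure D5:**
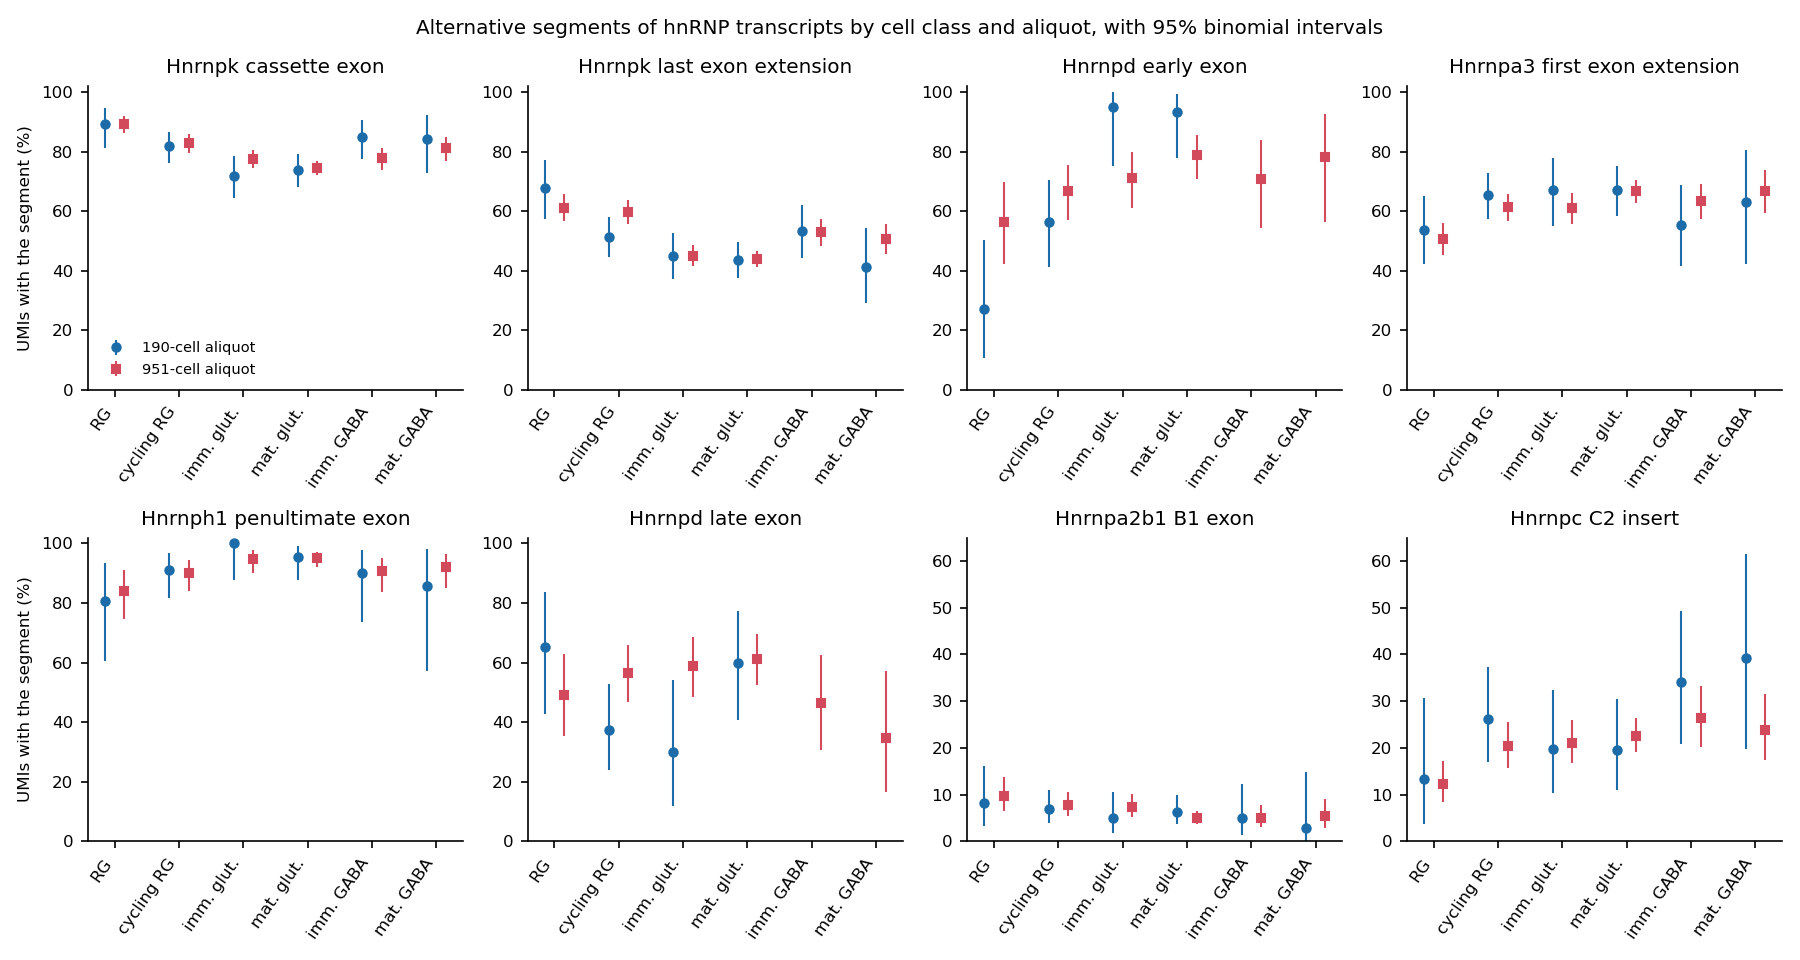
Share of molecules that carry a segment (y axis, percent of the Nanopore UMIs that read the region, with a scale to 65% for the last 2 panels) in 6 classes of cells (x axis: RG, radial glia-like, with cycling RG, imm. and mat. for immature and mature, glut. for glutamatergic-like and GABA for GABAergic-like). Circles are the 190 cell and squares the 951 cell aliquot, bars are exact binomial 95% intervals, and points with under 10 UMIs are left out. The Hnrnpk cassette falls from 89.2% and 89.3% in RG to 73.9% and 74.4% in mature glutamatergic-like cells, and the Hnrnpd early exon rises.

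In mature GABAergic-like against radial glia-like cells, Hnrnpk was called for isoform usage (adjusted p = 0.0193), as 1 of 8 genes, where 13.1% of all genes were. It was lost without the mature GABAergic-like sum of the 951 cell aliquot (0.272) and without the radial glia-like sum of the 190 cell aliquot (0.0850), and with no filter on low counts (0.625). With the block, Hnrnpk (0.000677) and Hnrnpa3 (0.0318) were called, against 16.5% of all genes. No single isoform of the 10 genes passed here, where 5.84% of all isoforms did. At an unadjusted p under 0.05 there were 3, and the share of all isoforms at that threshold was not counted. Hnrnpk-224 came to -0.51 on the log2 scale (adjusted p = 0.0708). With the block, Hnrnpk-224 (-0.50, adjusted p = 0.00461) and Hnrnpk-205 (0.75, adjusted p = 0.0499) passed, against 7.54% of all isoforms. The mature GABAergic-like sum of the 190 cell aliquot held 63 Hnrnpk UMIs and 1 Hnrnpd UMI.

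In the other 3 comparisons no hnRNP gene of the 10 was called for isoform usage. These were mature against immature glutamatergic-like cells, where 1.83% of all genes were called, mature against immature GABAergic-like cells (0.917%), and cycling against other radial glia-like cells (3.82%). At an unadjusted p under 0.05 there were 0, 0 and 2 of the 8 genes tested, the last 2 being Hnrnpk and Hnrnpa3. The share of all genes at that threshold was not counted. The limma voom test called none of the 10 in these 3 comparisons either. The usage difference between mature and immature cells was also compared between glutamatergic-like and GABAergic-like cells. It was not called for any of the 654 genes, and none of the 8 tested here had an unadjusted p under 0.05. Maturation and kind of neuron cannot be told apart in the GABAergic-like cells here either. Among 10 tested genes of the list of other hnRNP and related genes, Ewsr1 was called in mature glutamatergic-like and in mature GABAergic-like against radial glia-like cells, and Hnrnpf in the first of these. Both encode RNA-binding proteins. The share of transcripts not annotated as protein coding could be tested for Hnrnpdl and Hnrnph1 only, and neither was called, nor had an unadjusted p under 0.05, against radial glia-like cells in mature glutamatergic-like (adjusted p = 0.361 for Hnrnph1) or mature GABAergic-like cells (0.347 for Hnrnpdl), where 5.24% and 4.20% of all genes were.

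Single cells held enough UMIs for shares of isoforms in few genes. At least 10 Nanopore UMIs were found in 249 of 1121 cells for Hnrnpa1, 120 for Hnrnpk, 77 for Hnrnpa2b1 and 35 for Hnrnpa3, and in 10 or fewer for each of the other genes. The cells with at least 10 Hnrnpk UMIs were mostly mature glutamatergic-like (45), cycling radial glia-like (30) and radial glia-like (23), so they are not a sample of all cells. In these 120 cells, the share of Hnrnpk-201 had a mean of 38.6% and ranged from 9.09 to 72.7%. Its SD over cells was 14.7 percentage points, and binomial sampling at the UMI numbers of these cells alone gives 13.7. For Hnrnpa3-204 in 35 cells the mean was 58.1%, with an SD of 16.2 against 13.3 from binomial sampling. Of the 120 cells, 37 held all 5 Hnrnpk isoforms named here, 55 held 4, 23 held 3, 5 held 2 and none held 1.

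Over the 14 sums of class and aliquot, the summed level of the 10 genes ran most like those of Hmgb3 (Pearson's r = 0.861), Hist1h2ap (0.838), Polr2m (0.829), Psmc4 (0.826) and Srsf3 (0.824), of 2915 genes with at least 500 UMIs. Hmgb3 encodes a chromatin protein, Hist1h2ap a histone, Polr2m a subunit linked to RNA polymerase II, Psmc4 a proteasome subunit and Srsf3 a splicing factor. The points share libraries and classes, and the correlation is a description. The 10 genes themselves ran with their sum at r between 0.548 (Hnrnpd) and 0.801 (Hnrnpm), and each gene is part of that sum.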

How the data were processed

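Illumina UMI counts per gene and cell were made by the authors with Cell Ranger (2.0 in the submitters' processing notes) on mm10. For Nanopore, the authors mapped reads with minimap2, used Sicelore to find each read's barcode and UMI from those seen by Illumina, and built 1 consensus per UMI. Both kinds of file were deposited as raw UMI counts, the Nanopore ones per annotated Gencode isoform. Nanopore UMIs without an isoform were not analysed here, so Nanopore gene counts are sums over isoforms.

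Cells with at least 1400 Illumina genes were kept. They were clustered with Seurat 5.3.0 (2000 variable genes, without the 3 hnRNP genes among them, aliquots integrated by canonical correlation, 11 dimensions, resolution 0.8). A cluster took the name of a class when at least 3 of its markers were raised, a threshold set after the clusters were seen. The class also had to lead the next such class by 0.2 in mean log2 fold. No other class could have more markers among the top genes of the cluster. The unnamed cluster failed this last rule, with 2 markers of its best class against 3 of another. Scrublet in scanpy 1.11.5 marked 3 and 4 cells as doublets (0.624%), and they were kept in the main analysis. Cells are not replicates, so UMIs were summed per library or per class and aliquot, and the 7 classes that held 5 or more cells in both aliquots shared 1 fit. The test was the robust quasi-likelihood F test of edgeR 4.0.16 (R 4.3.3) after filterByExpr and TMM scaling, with diffSpliceDGE for isoform usage and a threshold of 0.05 on the adjusted p over all features tested. The steps were also run on simulated counts without a shared effect of the aliquot. That run cannot show how the tests behave where the sums of 1 aliquot vary together. Depth limits the isoform shares, with a median of 4472 Nanopore UMIs per cell.

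The aliquot number pairs the samples, since libraries of 1 number come from the same droplets. Deviations from the group means correlated with r = 0.507 between the platforms and with a median of 0.165 (0.111 to 0.281) over 21 pairs of classes. Fits with the aliquot as a block are given where they change a call. Alternatives were RLE factors, DESeq2 1.42.0, limma 3.58.1 voom, no filter on low counts, Nanopore gene sums, clustering with the hnRNP genes, removal of doublets and leaving out each sum.

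All 10 genes are named, with the isoforms of at least 5% of a gene's UMIs, or 10% in a class with at least 100 UMIs of the gene. Of 22 other hnRNP and related genes the 2 largest called rises and falls per comparison are named, the rest counted, and so are the 5 genes of at least 500 UMIs most like the summed genes. Genes named beyond this were chosen after their values were seen. The 10 genes and the lists were chosen with earlier results of these data known. Results on 1 coding segment of Hnrnpa1 and on 1 gene of the list are not reported here.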

Additional observations from a re-analysis of the deposited data

How the results depend on the processing

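No called difference of the 10 genes turned direction under any alternative. The alternatives reuse the same captured molecules, also where Nanopore sums are taken, so they are not independent of the main fit. Of their 50 differences that were not called, 15 turned at least once, none of them larger than 0.21 on the log2 scale. Of 21 called differences of the other genes, 1 turned (Hnrnpul1, from -0.72 to 0.06 in the Nanopore sums). Of the counts and shares, 132 stayed within 1.5 times the main count, or within 1 SD of the main share, and 34 moved further. For the share of a major isoform over all cells, the main value and its SD come from the 2 aliquots. Leaving out 1 aliquot leaves the other, which always lies within 1 SD of their mean. Those alternatives are among the 132 and could not have moved. Of the values of single genes, 96 kept their call and 44 lost it. With the aliquot as a replicate block, 9 genes of the 10 were called between the platforms, 3 in mature glutamatergic-like against radial glia-like cells on the gene level, 2 in mature GABAergic-like against radial glia-like cells both on the gene level and for isoform usage, 1 in mature against immature glutamatergic-like cells, and 10 in cycling against other radial glia-like cells. The block lost none of the calls for single genes.

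For mature glutamatergic-like against radial glia-like cells on the gene level, the count was 1 with RLE factors, 1 without doublets, 1 without the mature glutamatergic-like cluster with the fewest raised markers (chosen after seeing the data), 2 with Nanopore gene sums and 0 to 1 when 1 sum was left out. For mature GABAergic-like against radial glia-like cells it was 2 with Nanopore sums and 0 to 1 when a sum was left out. DESeq2 gave 0 in mature against immature GABAergic-like cells and 1 in cycling against other radial glia-like cells, where leaving out a sum gave 0 to 1 and 0 to 2. For isoform usage in mature glutamatergic-like against radial glia-like cells, the count was 2 without a filter on low counts, 2 without that cluster and 1 to 2 when a sum was left out. For mature GABAergic-like against radial glia-like cells it was 2 with limma voom, 0 without the filter and 0 to 3 when a sum was left out. The shares of all genes called under these settings were not counted, and the cause of these moves was not tested.

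Over single cells, the SD of the major share was 18.5 points for Hnrnpa3 and 18.8 for Hnrnpk with at least 5 UMIs per cell. It was 18.2 for Hnrnpa3 without the 190 cell aliquot, and 14.3 to 15.9 for Hnrnpk without an aliquot. A minimum of 20 UMIs left 6 and 11 cells and gave no value, as did Hnrnpa3 in the 190 cell aliquot alone. Tests within 1 aliquot were not run, since no spread would remain. Of the 4 genes called for isoform usage, Hnrnpd rests on the fewest Nanopore UMIs (632).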
